A study of Mus musculus with 27 samples.

Results

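The mitotic spindle and kinetochore genes are a list of 47 genes whose products drive chromosome segregation and cell division. A member was found by its symbol: every array probe that the platform annotation gives to a member was taken, with the older name Cdc2a read as Cdk1. Of the 47 genes, 45 had a named probe in the annotation used, and Ccnb1 and Mki67 had none there. Probes had to have a detection p, which sets them against the array's negative controls, under 0.05 for 6 or more of the 9 arrays in any group. By that rule 39 members were measured, out of 11945 genes measured in all.

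The series measured RNA from left lung lobes of male fetal mice of the cross C57BL/6 X BALBc at day 18 of gestation, on 27 Illumina bead arrays. Control fetuses developed in females that had ovulated naturally, with no embryo transfer. The EG in vitro fetuses came from blastocysts made in vitro, and the EG in vivo fetuses from blastocysts that had formed in vivo; in both cases the blastocysts were moved into pseudo-pregnant recipients, so both experimental groups carry the transfer itself. Each group held 3 pools of tissue with 3 technical arrays each; the number of fetuses in a pool is not stated, so the p-values measure the spread between pools.

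When a cell enters mitosis, cyclin-bound CDK1 and the Aurora and Polo kinases start chromosome condensation and spindle assembly. Kinetochores, protein complexes built on centromeric chromatin, tie chromosomes to spindle microtubules, and the spindle checkpoint delays anaphase until all are attached. Most of these genes are transcribed in the G2 and M phases of the cell cycle, so their RNA in a tissue is widely used as a readout of proliferation. In the fetal lung, cell division slows toward birth as the distal epithelium matures.

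Each array detected 19762 to 23449 of 45281 probes, with median raw signals of 113 to 170. Control replicate 1, labelled male, gave the X-inactivation transcript Xist at a log2 intensity of 10.90 with detection on 3 of 3 arrays, against 4.56 to 5.45 in the other 8 pools. EG in vitro replicates 1 and 2 also had Xist detected on 3 arrays each, at 5.45 and 5.41. The results below are therefore also given without control replicate 1.

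The promoters of the members shared sequence features that their choice did not use. RefSeq promoter windows (GRCm38.p6), 250 bases before to 50 bases after the transcription start, were available for 39 of the 47 genes in 41 entries, since Ect2 and Prc1 have overlapping entries for 2 starts each. The letters TTTGAA, searched on both strands (TTTGAA or TTCAAA), are the core of the cell cycle genes homology region, an element known from late cell cycle promoters. They occurred in 30 of the 41 windows (73.2%), against 17.9% of all 32851 windows and 12.1% of the 12317 windows of genes measured here. CCAAT, the NF-Y box, also searched on both strands (CCAAT or ATTGG), occurred in 75.6% against 37.4% of all windows. Both were present in 63.4% of the members' windows and in 6.95% of all windows. Related lists held them too: TTTGAA occurred in 63.3% and both motifs in 43.3% of the windows of other spindle, kinesin and cytokinesis genes, and TTTGAA in 42.9% of those of mitotic regulators. Windows for the Cdk1, Cdca8, Cenpa, Ttk, Ube2c, Kif11, Aspm and Top2a genes are printed and cover 8 of the 9 mitotic roles described below. All 8 hold both motifs, which 24 of the 39 members with a window did, so they do not stand for the whole list. The Cenph window is printed because Cenph had no TTTGAA and the largest difference among the members' brightest kept probes. Each printed window runs from position -100 to position 30 relative to the start, 5′ to 3′ on the gene's strand. Matches of TTTGAA and CCAAT on either strand are in capitals.
Cdk1, chr10:69352883-69353012 (- strand): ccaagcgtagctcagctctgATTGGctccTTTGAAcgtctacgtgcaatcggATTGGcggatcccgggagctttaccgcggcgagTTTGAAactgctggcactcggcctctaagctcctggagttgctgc
Cdca8, chr4:124936888-124937017 (- strand): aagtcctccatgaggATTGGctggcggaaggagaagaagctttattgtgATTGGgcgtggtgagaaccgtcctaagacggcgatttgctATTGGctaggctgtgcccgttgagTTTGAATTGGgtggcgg
Cenpa, chr5:30666786-30666915 (+ strand): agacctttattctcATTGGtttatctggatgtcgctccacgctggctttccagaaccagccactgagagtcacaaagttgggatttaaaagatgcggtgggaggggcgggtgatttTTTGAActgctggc
Ttk, chr9:83834589-83834718 (+ strand): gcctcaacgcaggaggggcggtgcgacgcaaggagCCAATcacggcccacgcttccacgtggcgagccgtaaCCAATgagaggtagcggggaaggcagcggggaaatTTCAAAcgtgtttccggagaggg
Ube2c, chr2:164769829-164769958 (+ strand): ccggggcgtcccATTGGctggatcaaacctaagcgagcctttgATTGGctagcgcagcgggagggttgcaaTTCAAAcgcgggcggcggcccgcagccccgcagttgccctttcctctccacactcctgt
Kif11, chr19:37376282-37376411 (+ strand): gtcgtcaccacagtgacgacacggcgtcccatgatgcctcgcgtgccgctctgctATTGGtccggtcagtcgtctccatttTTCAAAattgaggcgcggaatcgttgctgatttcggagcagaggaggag
Aspm, chr1:139454673-139454802 (+ strand): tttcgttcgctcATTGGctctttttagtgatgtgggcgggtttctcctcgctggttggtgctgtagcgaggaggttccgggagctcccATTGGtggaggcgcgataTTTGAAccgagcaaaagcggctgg
Top2a, chr11:99024160-99024289 (- strand): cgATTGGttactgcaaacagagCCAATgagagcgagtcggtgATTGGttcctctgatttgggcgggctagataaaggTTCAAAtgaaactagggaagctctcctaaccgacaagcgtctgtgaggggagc
Cenph, chr13:100775870-100775999 (- strand): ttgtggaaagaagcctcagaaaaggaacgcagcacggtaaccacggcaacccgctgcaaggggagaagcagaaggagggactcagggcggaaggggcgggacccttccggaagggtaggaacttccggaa

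In Cdca8 the 2 motifs overlap, and the capitals run together. In Cdk1, Ube2c, Kif11, Ttk and Top2a, CCAAT matches precede a TTTGAA that lies close to the start. A CCAAT beginning 20 to 40 bases before a TTTGAA was found in 41.5% of the members' windows and in 0.895% of all windows; this spacing, and a narrower window of 60 bases before to 50 after the start (68.3% against 5.5%), were chosen after the positions had been seen. By gene, 28 members had TTTGAA, 29 had CCAAT, 24 had both and 6 had neither, namely Birc5, Melk, Mad2l1, Nuf2, Nusap1 and Pttg1. The E2F-type letters TTTGGCG or TTTCGCG or TTTCCCG, on either strand, occurred in 14.6% of the members' windows, 5.58% of all windows and 9.17% of the windows of genes measured here. The order was the other way round in the replication licensing list, where 47.8% held the E2F-type letters and 26.1% TTTGAA. A match describes the letters in the window and shows no binding.

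The first comparison asks how lungs of fetuses from transferred, in vitro derived blastocysts differ from control lungs. Nearly the whole mitotic list was higher in EG in vitro: 35 of the 39 measured members rose, none fell, and 4 did not pass the test (limma, Benjamini-Hochberg adjusted over all probes, threshold 0.05). Over all 11945 genes measured, 21.8% rose and 23.0% fell. The members' median log2 difference was 2.43, where 1 is a 2-fold change, and that of all genes was 0.03. Of the members, 33 rose at least 2-fold, against 8.65% of all genes, and in 35 all 3 EG in vitro pools lay above all 3 control pools, against 28.6% of all genes. In bulk tissue a larger share of dividing cells and more RNA per dividing cell cannot be told apart.

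The second comparison sets lungs from transferred, in vivo derived blastocysts against the same control pools. Again 35 of 39 members rose and none fell, against 22.2% and 21.2% of all genes, and 34 rose at least 2-fold (8.45% of all genes). The median difference was 2.39, against 0.04 for all genes, and pools did not overlap for 35 members (28.1% of all genes). Both comparisons use the same 3 control pools, so they are not independent of each other. The 4 members that missed the threshold were the same in each: Ccna2, Ube2c, Spc24 and Hmmr. With the replicate number as a block, all 39 members rose in both comparisons, against 30.6% of all genes in the first and 30.5% in the second. The 39 include Nuf2 and Hmmr, detected on 1 and 4 of 9 control arrays. Both passed the filter through the transfer groups alone, so their place in these counts is a description.

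**Figure D1:**
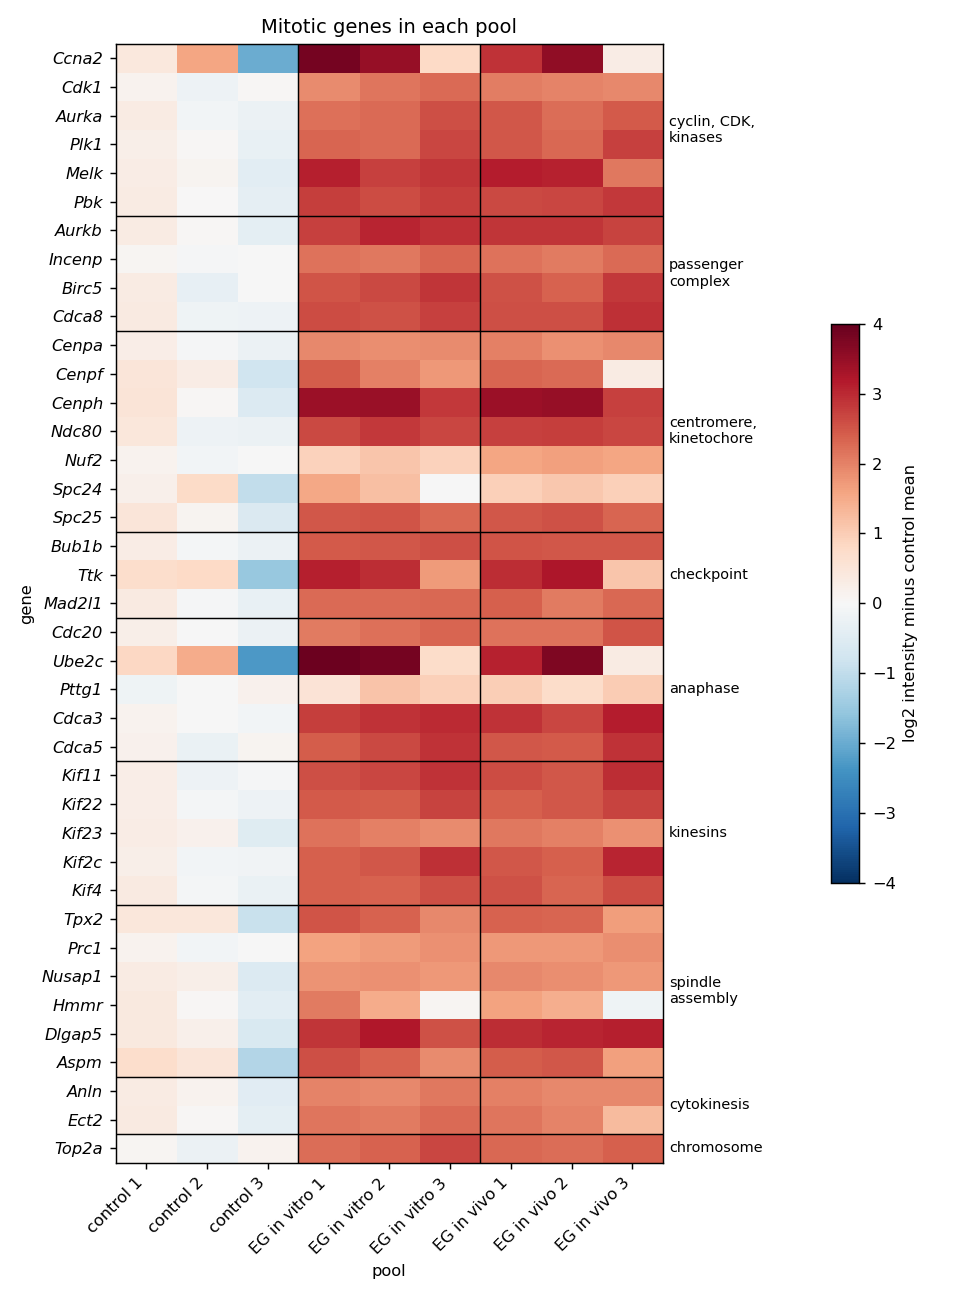
Log2 intensity of each of the 39 measured members (rows, by role) in each of the 9 pools (columns), minus the mean of the 3 control pools. The 6 columns of transferred fetuses are red for nearly all rows, while Ccna2, Ube2c, Ttk and Hmmr are paler in replicate 3 of both transfer groups.

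Among the cyclins, CDK1 and mitotic kinases, 5 of the 6 measured members rose in each comparison. Cdk1, the kinase that starts mitosis, stood at 9.67, 9.35 and 9.60 in the control pools, at 11.42, 11.68 and 11.82 in EG in vitro and at 11.58, 11.53 and 11.46 in EG in vivo (log2 intensity, replicates 1 to 3). No transferred pool came near a control pool: the differences were 2.10 ± 0.14 (SE, n = 3 pools a group; adjusted p = 1.56e-05, limma) and 1.99 ± 0.14 (adjusted p = 2.3e-05), or 4.29-fold and 3.96-fold. Its 2 other probes were detected on 1 and 0 of 9 control arrays and passed the filter through the transfer groups alone. Their differences, 0.78 and 0.83 in EG in vitro and 0.80 and 0.79 in EG in vivo, describe dim probes that had to be higher there. Melk, a kinase with high RNA in dividing progenitor cells, had 5.86, 5.69 and 5.16 in control, 8.68, 8.29 and 8.44 in EG in vitro and 8.72, 8.64 and 7.69 in EG in vivo. It rose by 2.90 ± 0.30 and 2.78 ± 0.30 (adjusted p = 0.00012 and 0.000171, limma), the most of this role group. Pbk, a mitotic kinase, rose from 9.23, 8.92 and 8.52 in control to 11.66, 11.51 and 11.67 in EG in vitro and to 11.52, 11.57 and 11.72 in EG in vivo. Both transfer groups lay far above its control pools, with differences of 2.72 and 2.71 (SE 0.18 each). Aurka, the centrosomal Aurora kinase, rose by 2.34 and 2.39, and Plk1, the Polo kinase, by 2.43 and 2.51.

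Ccna2, the cyclin of S phase and early mitosis, did not pass. Its control pools were at 7.10, 8.26 and 4.68, its EG in vitro pools at 10.51, 10.15 and 7.47 and its EG in vivo pools at 9.56, 10.22 and 6.98. Replicate 3 minus the mean of replicates 1 and 2 was -3.01 in control, -2.87 in EG in vitro, then -2.91 in EG in vivo. This low replicate 3 in every group made the groups overlap. The differences were 2.70 ± 1.2 and 2.24 ± 1.2, with adjusted p = 0.109 and 0.178 (limma). With the replicate number as a block the same differences had SE 0.25 and adjusted p = 7.96e-05 and 0.000218. Ccnb2, a mitotic cyclin, and Nek2, a centrosomal kinase, had probes that were detected on 0 of 27 arrays.

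The chromosomal passenger complex corrects faulty chromosome attachments and acts again in cytokinesis; all 4 of its genes rose in both comparisons. Aurkb, its kinase, was at 8.82, 8.53 and 8.08 in control, at 11.21, 11.51 and 11.39 in EG in vitro and at 11.35, 11.35 and 11.17 in EG in vivo. The rise was 2.90 ± 0.19 and 2.81 ± 0.19 (adjusted p = 1.42e-05 and 1.87e-05, limma), or 7.45-fold and 7.04-fold. The scaffold Incenp rose by 2.20 and 2.17, survivin (Birc5) by 2.67 and 2.58 and borealin (Cdca8) by 2.62 and 2.69. The 4 genes thus rose between 4.51-fold and 7.45-fold, with SEs from 0.11 to 0.20 on the log2 scale.

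Centromere and kinetochore genes varied most among themselves, from 0.91 to 3.22 in EG in vitro, and 6 of 7 measured members rose in each comparison. The second probe of Cenph, a subunit of the constitutive centromere network, was detected on 0 arrays in each group. On its other probe Cenph had the largest difference among the members' brightest kept probes. Its pools were at 7.12, 6.64 and 6.04 in control, at 10.01, 10.04 and 9.42 in EG in vitro and at 10.01, 10.09 and 9.35 in EG in vivo. Its lowest transferred pool lay far above its highest control pool, and it rose by 3.22 ± 0.32 in both (adjusted p = 9.67e-05 and 0.000114, limma), 9.34-fold and 9.30-fold. The NDC80 complex forms the kinetochore's microtubule-binding arm from Ndc80, Nuf2, Spc24 and Spc25. Ndc80 rose from 7.83, 7.18 and 7.14 in control to 10.03, 10.21 and 10.05 in EG in vitro and to 10.11, 10.15 and 10.04 in EG in vivo, by 2.71 and 2.72 (SE 0.19). Spc25 rose by a similar 2.43 and 2.46 (SE 0.25).

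The other two subunits of that complex were measured less well. Nuf2, singled out after its values were seen, was detected on 1 of 9 control arrays and on every array of the transfer groups. It stood at 5.08, 4.84 and 4.93 in control, at 5.88, 6.05 and 5.88 in EG in vitro and at 6.54, 6.59 and 6.52 in EG in vivo. The 3 groups did not overlap in any pairing, and the differences from control were 0.98 and 1.60. Nuf2 passed the filter through the transfer groups alone and its control level lies at the background, so these differences are a description of a probe that had to be higher there. Spc24 was at 9.01, 9.58 and 7.84 in control, at 10.35, 10.01 and 8.79 in EG in vitro and at 9.76, 9.90 and 9.76 in EG in vivo. Replicate 3 was low in control and in EG in vitro, and the differences of 0.91 ± 0.49 and 1.00 ± 0.49 did not pass (adjusted p = 0.182 and 0.146). With the replicate block they did, at adjusted p = 0.0406 and 0.0289. A dimmer second Spc24 probe showed no low replicate 3 in EG in vitro (7.08, 7.47 and 7.76). In control it was detected on 5 arrays and lay at 5.44, 5.13 and 5.40, too near background to show one. This probe was kept through the transfer groups alone, where it had to be high, so its differences of 2.11 and 2.21 are a description.

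Cenpa, the histone H3 variant that marks centromeres, rose by 1.88 and 1.93 (SE 0.14). Cenpf, a large protein of the outer kinetochore, passed narrowly, at 2.05 ± 0.56 (adjusted p = 0.0179, limma) in EG in vitro and 1.64 ± 0.56 (adjusted p = 0.0452) in EG in vivo. Its EG in vivo replicate 3, at 6.87, lay below control replicate 1 at 7.02. Without control replicate 3 Cenpf did not pass in either comparison (1.66 and 1.25, adjusted p = 0.0527 and 0.127). It did not pass in EG in vitro without EG in vitro replicate 1 (1.87, adjusted p = 0.062). Its EG in vivo call held in 8 of 20 alternative analyses, and of the 9 that leave out a pool only the fit without EG in vivo replicate 3 kept it. Its second probe rose by 1.70 and 1.79 (SE 0.15). Cenpe, the kinetochore kinesin, was detected on 0 of 27 arrays.

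All 3 measured spindle checkpoint genes rose. Bub1b, the BubR1 kinase, rose by 2.51 ± 0.15 and 2.49 ± 0.15 (adjusted p = 8.62e-06 and 1.11e-05, limma), and Mad2l1, which holds back the anaphase activator, by 2.28 and 2.25 (SE 0.17). Ttk, the MPS1 kinase that starts the checkpoint signal, was at 7.70, 7.80 and 5.48 in control, at 10.11, 9.95 and 8.69 in EG in vitro and at 9.94, 10.23 and 8.09 in EG in vivo. The low replicate 3 recurred in each group, but the lowest transferred pool still lay above the highest control pool. Ttk rose by 2.59 ± 0.77 and 2.43 ± 0.77 (adjusted p = 0.0268 and 0.0353). The call was lost in both without control replicate 3 (1.83 and 1.67, adjusted p = 0.0631 and 0.0864). In EG in vitro it was also lost without EG in vitro replicate 1 or 2 (2.33 and 2.41), and in EG in vivo without EG in vivo replicate 1 or 2 or EG in vitro replicate 2 (2.17, 2.02 and 2.43). Bub1, the other checkpoint kinase, was detected on 0 of 27 arrays by either of its probes.

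Of the 5 anaphase and sister chromatid genes, 4 rose in each comparison. Cdca3, a mitotic entry factor that is itself degraded in G1, was at 8.98, 8.83 and 8.74 in control, at 11.61, 11.75 and 11.83 in EG in vitro and at 11.75, 11.52 and 12 in EG in vivo. It rose by 2.88 ± 0.15 and 2.91 ± 0.15 (adjusted p = 5.46e-06 and 6.27e-06, limma), with pools of a group close together. Cdc20, the anaphase activator, rose by 2.20 and 2.29, and sororin (Cdca5), which protects sister chromatid cohesion, by 2.66 and 2.60. Securin (Pttg1), the inhibitor of separase, rose least of all members that passed: 0.88 ± 0.18 in EG in vitro, with 0.91 ± 0.18 in EG in vivo (adjusted p = 0.00448 and 0.00409).

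Ube2c, the ubiquitin-conjugating enzyme that works with the anaphase promoting complex, resembled Ccna2. It was at 7.95, 8.58 and 4.80 in control, at 11.02, 10.93 and 7.83 in EG in vitro and at 10.20, 10.86 and 7.45 in EG in vivo. Replicate 3 minus the mean of the others was -3.47, -3.15 and -3.08 in the 3 groups, and the groups overlapped. The differences of 2.81 ± 1.3 and 2.39 ± 1.3 did not pass (adjusted p = 0.122 and 0.186, limma), and with the replicate block they did (SE 0.17, adjusted p = 1.27e-05 and 2.81e-05). A replicate 3 more than 1 log2 unit below the other replicates in all 3 groups was found for 3 of the 39 members (Ccna2, Ube2c and Ttk, 7.69%) and for 473 of all 11945 genes (3.96%). The other Ttk probes lay near background in control, detected on 1 and 0 of 9 arrays, where a drop of that size could not show. A second Nusap1 probe showed such a low replicate 3 in every group (-2.26, -1.49 and -1.55) and the brightest Nusap1 probe did not. The cause of the low replicate 3 was not tested.

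**Figure D2:**
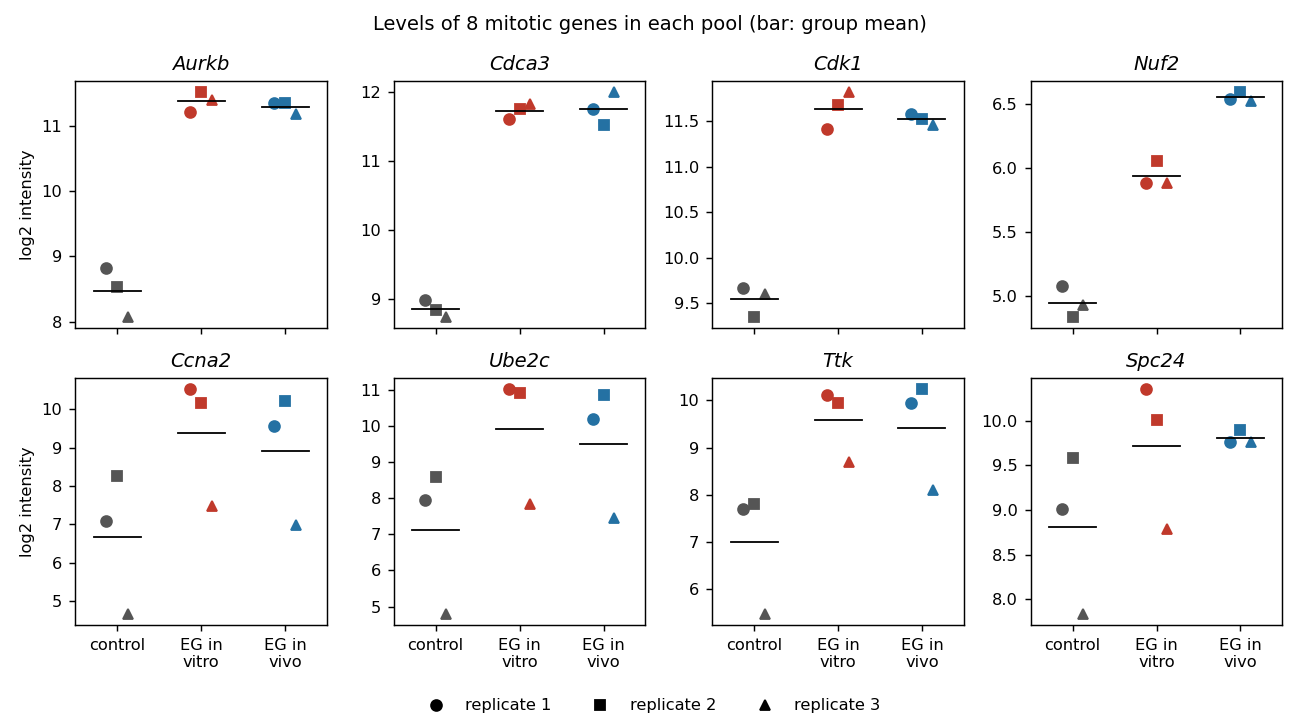
Log2 intensity of 8 members in each pool, with circles, squares and triangles for replicates 1, 2 and 3 and a bar at the group mean; the vertical scale differs between panels. Aurkb, Cdca3 and Cdk1 separate the control pools from the transferred ones. Nuf2 does too, but it passed the filter through the transfer groups alone and had to be higher there. Replicate 3 of Ccna2, Ube2c and Ttk sits low in every group and that of Spc24 in control and EG in vitro.

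All 5 measured mitotic kinesins rose in both comparisons. Kif11, the motor that pushes spindle poles apart, was at 7.21, 6.73 and 6.89 in control, at 9.51, 9.63 and 9.82 in EG in vitro and at 9.55, 9.43 and 9.90 in EG in vivo. It rose by 2.71 ± 0.18 and 2.68 ± 0.18 (adjusted p = 1.37e-05 and 1.76e-05, limma). Kif2c, which depolymerises microtubules at kinetochores, went from 7.95, 7.60 and 7.56 in control to 10.08, 10.18 and 10.61 in EG in vitro and to 10.19, 10.10 and 10.75 in EG in vivo. For both genes every transferred pool lay above every control pool, and Kif2c rose by 2.59 and 2.65 (SE 0.22). The chromokinesins Kif22 and Kif4 rose by 2.53 and 2.44 in EG in vitro and by 2.53 and 2.5 in EG in vivo. Kif23, the motor of the central spindle, rose by 2.02 and 1.99 on its brightest probe. Of its 4 kept probes 3 rose, but the dimmest of these was detected on 2 of 9 control arrays. That probe passed the filter through the transfer groups alone and had to be higher there. The fourth, noticed after its values were seen, fell by 0.40 in EG in vitro and by 0.63 in EG in vivo (adjusted p = 0.0349 and 0.00457, limma). Kif20a, a cytokinesis kinesin, was detected on 2 control arrays and on no others.

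Among the 6 spindle assembly and microtubule-binding genes, 5 rose in each comparison. Dlgap5, which stabilises kinetochore fibres, was at 6.20, 6.03 and 5.22 in control, at 8.67, 9.01 and 8.36 in EG in vitro and at 8.76, 8.85 and 8.92 in EG in vivo. It rose by 2.86 ± 0.27 and 3.03 ± 0.27 (adjusted p = 7.18e-05 and 6.19e-05, limma), with all transferred pools above all controls. Aspm, a spindle pole protein, was at 9.08, 8.86 and 7.21 in control, at 10.96, 10.75 and 10.27 in EG in vitro and at 10.80, 10.87 and 10.02 in EG in vivo. Its control replicate 3 was far below the other controls; the rises of 2.28 ± 0.48 and 2.18 ± 0.48 passed (adjusted p = 0.00559 and 0.00724). Tpx2, which activates Aurora A on the spindle, rose by 2.27 and 2.11, Prc1, the bundler of the central spindle, by 1.72 and 1.77, and Nusap1, a microtubule-bundling protein, by 1.79 and 1.84. A second Nusap1 probe passed in EG in vitro (2.17 ± 0.73, adjusted p = 0.0421, limma) but not in EG in vivo (1.91 ± 0.73, adjusted p = 0.0679).

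Hmmr, a spindle-associated hyaluronan receptor, did not pass. It was at 5.44, 5.10 and 4.65 in control, at 7.13, 6.55 and 5.15 in EG in vitro and at 6.67, 6.52 and 4.89 in EG in vivo, and was detected on 4 control arrays and on 6 of 9 in each transfer group. Replicates 1 and 2 of both transfer groups lay above all controls and replicate 3 did not. The differences were 1.21 ± 0.59 and 0.96 ± 0.59 (adjusted p = 0.142 and 0.241, limma, and with the replicate block 0.00379 and 0.0114). Hmmr passed the filter through the transfer groups alone, where it had to be detected, so its differences and the block result are a description.

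Both measured cytokinesis genes rose. Ect2, which activates RhoA at the cleavage furrow, was at 6.72, 6.41 and 5.98 in control, at 8.52, 8.45 and 8.63 in EG in vitro and at 8.51, 8.35 and 7.62 in EG in vivo. It rose by 2.17 ± 0.26 and 1.79 ± 0.26 (adjusted p = 0.000282 and 0.000864, limma), and its EG in vivo replicate 3 was the lowest transferred pool. Anillin (Anln), a scaffold of the contractile ring, rose by 2.01 and 1.96 (SE 0.19) on its brightest probe. A second Anln probe, detected on 9 of 9 arrays in every group, did not pass (1.72 ± 0.60 and 1.13 ± 0.60, adjusted p = 0.0511 and 0.177, limma). Racgap1, the partner of Kif23 in the central spindle, was detected on 0 of 27 arrays. Top2a, the topoisomerase that untangles sister chromatids, was at 9.52, 9.20 and 9.57 in control, at 11.67, 11.80 and 12.10 in EG in vitro and at 11.74, 11.66 and 11.82 in EG in vivo. It rose by 2.42 ± 0.15 and 2.31 ± 0.15 on its brightest probe (adjusted p = 1.22e-05 and 1.77e-05, limma), or 5.37-fold and 4.96-fold. A second Top2a probe, detected on 9 of 9 arrays in every group, rose by 3.26 and 3.28 (SE 0.13), slightly more than Cenph.

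**Figure D3:**
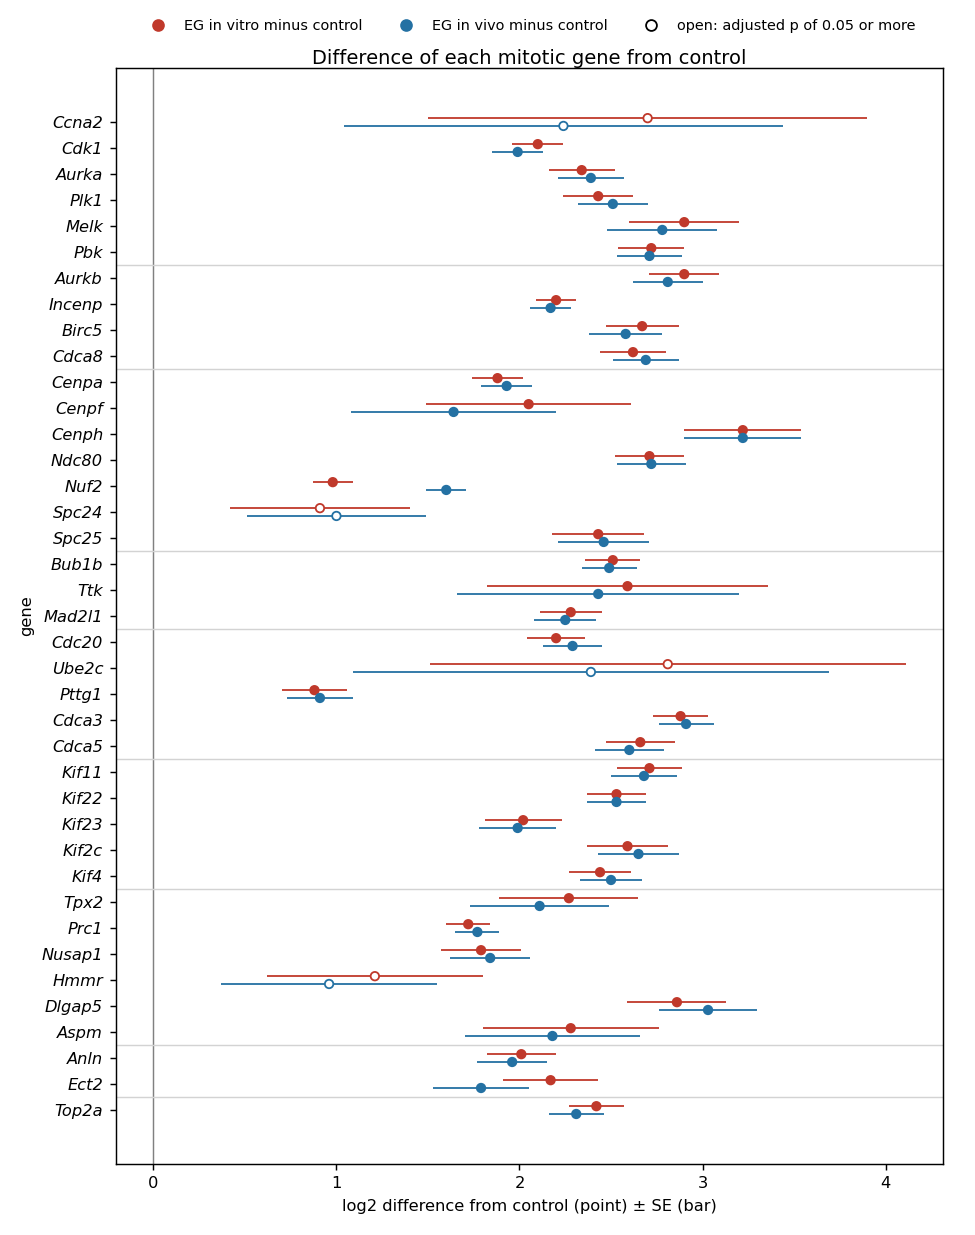
Log2 difference from control of each measured member (points) with its SE (bars), in EG in vitro (red) and EG in vivo (blue); open points did not pass an adjusted p of 0.05 and grey lines separate the roles. Most points lie between 1.5 and 3, Cenph is the highest at 3.22, and the open points belong to Ccna2, Spc24, Ube2c and Hmmr.

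The brightest probes of the 6 members that were not kept stayed between 4.43 and 5.29 on the log2 scale in every pool; the highest value is that of Kif20a in control replicate 1. These probes give no measure of a change. The members' 39 values each came from the brightest kept probe. A further 33 kept probes covered 22 of these genes, but 18 of them, for 13 genes, were detected on at least 6 control arrays; the rest passed the filter through the transfer groups and are not counted here. Of these 18, 16 rose, 1 fell (Kif23) and 1 did not pass (Anln) in the first comparison. In the second 15 rose, 1 fell (Kif23) and 2 did not pass (Anln and Nusap1). Among all kept probes detected as often in control, 19.2% rose in each comparison. In the controls 37 of the 39 members were detected on at least 6 of 9 arrays, the exceptions being Nuf2 and Hmmr. Of these 37, 34 rose in each comparison, against 20.8% of all genes detected as often in control in EG in vitro, with 21.3% in EG in vivo.

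The control pools differed among themselves in the members. Relative to the control mean, the members' median was 0.32 in control replicate 1, -0.02 in replicate 2 and -0.28 in replicate 3. In replicate 1, 38 of 39 members (97.4%) lay above their control mean, against 50% of all genes, and in replicate 3 this held for 4 members (10.3%), against 53.9% of all genes. The 6 transferred pools ranged from 2.29 to 2.47 above the control mean, so the distance between groups was several times the distance between control pools. The median SD between pools over the members was 0.328 in control, 0.159 in EG in vitro, with 0.157 in EG in vivo, against 0.0813 between technical arrays of a pool. Without control replicate 1, the pool with high Xist, 35 members rose in the first comparison and 34 in the second, with medians of 2.62 and 2.56. Of all 11945 genes, 2143 and 2210 rose in that setting. Without control replicate 3, 33 members rose in each, with medians of 2.13 and 2.16, and 2585 and 2620 of all genes rose.

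The third comparison asks whether the origin of the blastocyst mattered once both groups had been transferred. No member and no gene passed in EG in vitro minus EG in vivo (limma, percent called 0), and 153 genes had an unadjusted p under 0.05. The members' median difference was 0.02, against -0.03 for all genes, with a range from -0.62 to 0.46, and 22 of 39 were above 0. The 95% interval of the difference lay within 2-fold for 31 of the 39 members and within 1.5-fold for 25. With the replicate number as a block it lay within 2-fold for 37. The block narrowed it most for the genes with a low replicate 3: for Ccna2 from between -2.29 and 3.20 to between -0.12 and 1.03, and for Ube2c from between -2.56 and 3.41 to between 0.03 and 0.82. Ube2c thus had an unadjusted p of 0.0398 with the block and an adjusted p of 1 (limma). Nuf2 was the member with an unadjusted p under 0.05 without the block: it was lower in EG in vitro by 0.62 (95% interval of the difference -0.87 to -0.36, unadjusted p = 0.000487, adjusted p = 1, limma). It was also the member whose 3 pools did not overlap in this direction, which 4.24% of all genes share, while no member was higher without overlap (1.17% of all genes).

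Other genes of cell division were read from lists chosen by function, with earlier results of these data known. Among all genes measured, 21.8% rose in the first comparison and 22.2% in the second. Of 29 measured further kinetochore and centromere genes, 27 rose in the first comparison and 26 in the second, and none fell (medians 2.17 and 1.84). Ska3, of the complex that holds kinetochores to moving microtubules, rose by 2.99 and 2.96, the cohesin protector Sgo1 by 2.76 and 2.63, and Spdl1, the dynein adaptor Spindly, by 2.74 and 2.86. Of 27 further spindle, kinesin and cytokinesis genes, 24 rose in each comparison and none fell (medians 2.07 and 1.92). The spindle kinesin Kif15 rose by 2.93 and 2.92, separase (Espl1) by 2.77 and 2.84, and Gtse1, a microtubule-associated protein of G2, by 2.70 and 2.73. Among 15 measured regulators of mitotic transcription and entry, 10 rose in each and none fell (medians 1.58 and 1.66). Cdc25c, the phosphatase that activates CDK1, rose by 2.90 and 2.96, Mybl2, a transcription factor of late cell cycle genes, by 2.34 and 2.30, and the CDK1-inhibiting kinase Pkmyt1 by 2.33 and 2.31. Activators and an inhibitor of CDK1 were both among the genes that rose. In these lists Nsl1, Cit, Mastl and Ccnf were counted as rising but were detected on 1, 2, 0 and 0 of 9 control arrays. They passed the filter through the transfer groups alone and had to be higher there.

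The anaphase promoting complex, whose substrates include many members, gave smaller values. Of its 16 measured subunits and partners, 4 rose and 1 fell in EG in vitro and 5 rose and 1 fell in EG in vivo, near the 21.8% and 22.2% of all genes that rose. Their medians were 0.36 and 0.38. Anapc15 rose by 1.31 and 1.18, the late mitotic activator Fzr1 by 0.87 and 0.92 and Cdc16 by 0.78 and 0.74. The gene that fell was Anapc16, named after its values were seen, by 0.31 and 0.33 (adjusted p = 0.046 and 0.0375, limma). Tubulins and gamma-tubulin ring genes, the material of the spindle and of interphase microtubules alike, had medians of 0.66 and 0.55, with 8 of 13 rising in each. Tubb6 rose by 1.55 and 1.52, gamma-tubulin (Tubg1) by 1.42 and 1.52 and Tubb5 by 1.05 and 1.03. Differences between lists were not tested.

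Genes of DNA replication, which act before mitosis, rose in similar numbers. Of 23 replication licensing and helicase genes, 19 rose in each comparison and none fell (medians 2.25 and 2.20). Among these, Orc1 was detected on 4 of 9 control arrays, passed the filter through the transfer groups alone and had to be higher there. The loading factor Cdc6 rose by 3.37 and 3.19, Mcm10 by 3.33 and 3.29 and Gins2 by 3.01 and 3.03. Among 21 genes of G1 control and cell cycle exit, 9 rose and 6 fell in EG in vitro and 10 rose and 6 fell in EG in vivo. The shares of all genes were 21.8% rising and 23.0% falling in EG in vitro, with 22.2% and 21.2% in EG in vivo. Cdkn1b, counted as falling, was detected on 9 control arrays, 4 EG in vitro arrays and 0 EG in vivo arrays. It passed the filter through control alone and had to be lower in the transfer groups. The E cyclins Ccne1 and Ccne2 rose by 2.47 and 2.26 in EG in vitro and by 2.42 and 2.19 in EG in vivo. Cdkn2b, the inhibitor of CDK4 and CDK6, fell by 4.07 in EG in vitro and fell by 3.45 in EG in vivo (SE 0.22, adjusted p = 6.59e-06 and 1.57e-05, limma).

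**Figure D4:**
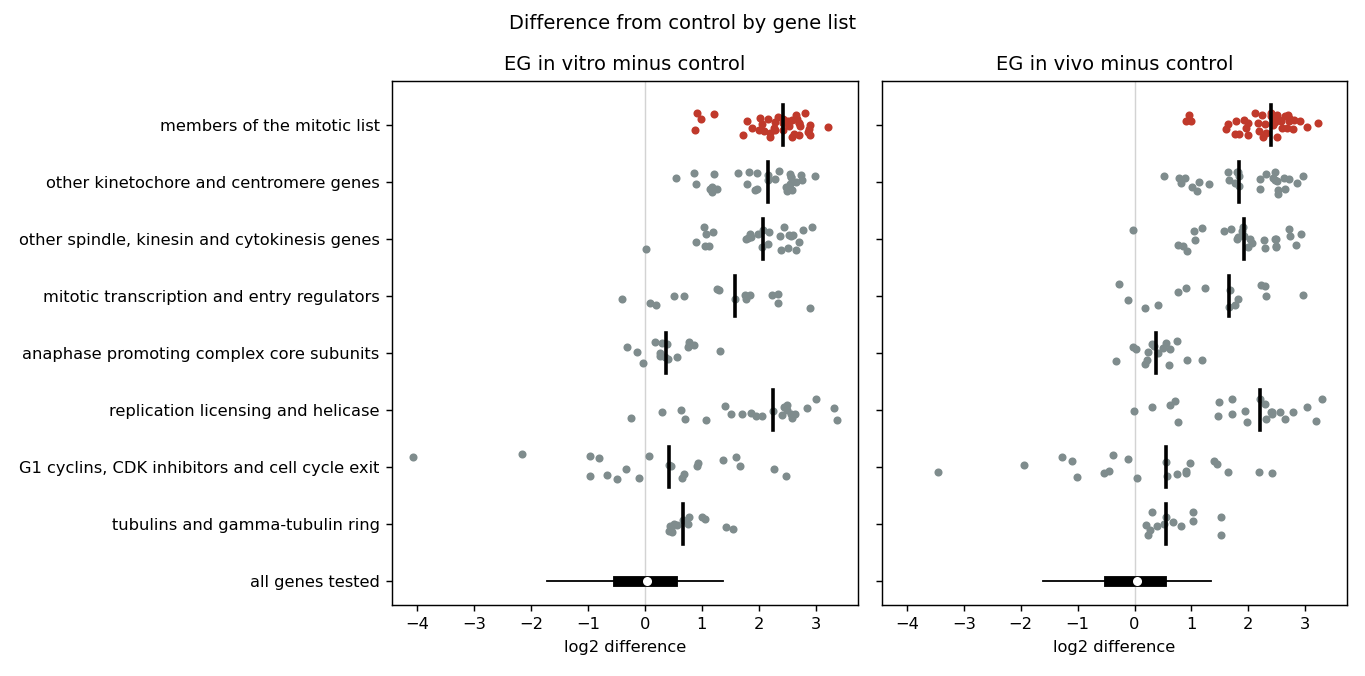
Log2 difference from control for each measured gene of the mitotic list (red) and of 7 further lists (grey), with black bars at list medians, in EG in vitro (left) and EG in vivo (right). The bottom line gives the 5th to 95th percentile of all genes (-1.72 to 1.37 in EG in vitro), with the quartiles thick; the members' median of 2.43 lies to its right.

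Markers of lung cell types moved with the groups. As a background, 21.8% of all genes rose and 23.0% fell in EG in vitro, with 22.2% and 21.2% in EG in vivo. Of 8 measured alveolar type II markers 7 fell in each comparison, and their summed intensity was 94700 to 107000 in control, 26900 to 31000 in EG in vitro and 30500 to 33900 in EG in vivo. All 6 alveolar type I markers fell (42300 to 46900 in control, 7100 to 7830 in EG in vitro and 8720 to 10900 in EG in vivo), and so did 4 of 5 club and ciliated markers (33800 to 43300, 688 to 929 and 799 to 1930). Endothelial markers fell for 5 of 6 in EG in vitro and for all 6 in EG in vivo (19900 to 28200, 9340 to 10700 and 9850 to 11000). Leukocyte markers fell for 4 of 6 in each (18200 to 28600, 2220 to 3520 and 2530 to 3110). Of 7 mesenchymal markers 1 rose and 3 fell (48200 to 50700, 32200 to 41600 and 28000 to 40200). Heart muscle markers fell for 4 of 4 in EG in vitro and 3 of 4 in EG in vivo (7060 to 8320, 2750 to 4010 and 2990 to 4810). The source of their RNA in the lung samples was not tested. No marker that was kept in these lists was undetected on all arrays of a group. Aqp5 and Kdr, detected on 9 and 6 control arrays, passed the filter through control alone and had to be lower in the transfer groups.

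Blood was read separately, since erythroid precursors divide. Of 8 measured erythroid markers 4 rose and 1 fell in each comparison. For all genes 21.8% rose and 23.0% fell in EG in vitro, with 22.2% and 21.2% in EG in vivo. The summed intensity overlapped between groups: 37400 to 43100 in control, 38400 to 43300 in EG in vitro and 37200 to 44600 in EG in vivo. That sum is weighted to the brightest marker, Hba-a1, at 14.80, 14.74 and 14.75 in the 3 groups. Its overlap therefore does not show an unchanged share of blood. The embryonic globins Hbb-y, Hba-x and Hbb-bh1 rose by 4.66, 3.08 and 2.61 in EG in vitro, and the transferrin receptor Tfrc by 0.82. Hbb-bh1 was detected on 2 of 9 control arrays, passed the filter through the transfer groups alone and had to be higher there. The adult globin Hba-a1 changed by -0.06 (adjusted p = 0.733, limma), Alas2, which starts haem synthesis in red cells, fell by 1.73, and Klf1 and Slc4a1 did not pass. The erythroid factor Gata1 was not kept and Epb42 was detected on 0 control arrays. The part that shifts in cell makeup had in the members' differences was not tested.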

How the data were processed

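RNA of 9 pools of fetal lung (3 per group) was read on 27 arrays, 3 technical arrays a pool. The intensity values are mean bead signals that the authors deposited without normalization (lowest 84.0), and the detection p-value of each probe is named so per the file headers. The authors' deposited processed matrix, also intensity, served as an alternative; neither its tool nor the scanner software is given in the sources used here.

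Of 45281 probes, 34885 carried 1 symbol in the platform annotation, 18 several and 10378 none; 34807 matched RefSeq names (GRCm38.p6) by gene identifier. Signals were background corrected with the detection p-values, quantile normalized and log2 transformed (neqc, limma 3.58.1 in R 4.3.3, offset 16), which compresses differences of dim probes. The detection rule left 22958 probes and 11945 genes, each read from its kept probe of highest mean. Technical arrays were averaged, giving n = 3 pools a group, and lmFit with eBayes was fitted to all 3 groups (6 residual and 2.41 prior degrees of freedom), with Benjamini-Hochberg adjustment over all kept probes. The fit was tested on simulated data. The number of pools, 3 a group, limits the precision.

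Members and lists were chosen with earlier results of these data known, and so were the roles. Named with pool values were, per role, the member that rose most in EG in vitro (2 in roles of 6 or more), members that were not kept or did not pass, and Cdk1, Top2a, Ccnb1 and Mki67; elsewhere up to 3 genes of each list with the largest change past the threshold. Deviations of same-numbered pools had correlations of 0.50 to 0.83 in 9 pairs, against -0.81 to 0.77 in 18 pairs of different number. Replicate 1 with replicate 2 of another group was also positive (0.35 to 0.77), and the negative values all involved replicate 3. The values thus set replicate 3 apart and do not tell replicate 1 from replicate 2. A pairing of same-numbered pools is read from the data and is not stated in the labels. Alternatives varied the background correction, offset, filter, probe rule, weights, block, threshold and pools.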

Additional observations from a re-analysis of the deposited data

How the results depend on the processing

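Over the alternatives run, no measured member changed sign against control, and the calls that changed were those of Cenpf, Ttk, Ccna2, Ube2c, Spc24 and Hmmr. The authors' processed matrix gave members' medians of 1.97 (EG in vitro) with 1.90 for EG in vivo, and the cause was not tested. Array weights raised the count of all genes called from 5356 to 9543 in EG in vitro and from 5185 to 8540 in EG in vivo, gave a members' median of 2.05 in EG in vitro, and called 1 gene between the transfer groups; the cause was not tested. Testing for a change beyond 1.2-fold called 3414 genes in EG in vivo. With the replicate block all 39 members passed in both comparisons with control, all genes called numbered 7172 and 6975, and the block called 0 genes between the transfer groups. Nuf2 and Hmmr are among the 39, though the filter kept them through the transfer groups alone. Leaving out each pool in turn gave 33 to 38 members called in EG in vitro and 33 to 35 in EG in vivo, medians of 2.13 to 2.62 and 2.16 to 2.56, and 4304 to 5769 and 4220 to 5147 genes called. Between the transfer groups the medians were -0.01 to 0.02 and 0 genes were called. Replicates 1 and 2 alone gave 39 and 38 members called, with medians of 2.21 and 2.25, while 3387 and 3362 of all 11945 genes rose. With no filter on dim probes, 34 and 33 of 45 members passed, all higher, while 2557 and 2594 of 19057 genes rose. Probes near background, such as those of Nuf2 and Hmmr, limit the size of a difference that can be read.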
